A study of Mus musculus with 34 samples.

Results

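The molecular chaperones of mouse colonic macrophages are described here through 3 families of genes: the heat shock proteins (Hsp), the J-domain proteins (Dnaj) and the subunits of the cytosolic chaperonin (Cct). Members were taken by symbol alone, as every listed gene whose name begins with Hsp and a class letter or number, with Dnaja, Dnajb or Dnajc, or with Cct2 to Cct8, leaving out Hspa8, which is not analysed here. This gave 60 of the 9851 distinct genes in the series, 19 Hsp, 34 Dnaj and 7 Cct. Of these, 55 were among the 9022 genes of the first table, 54 among the 8816 of the rescue table and 53 among the 8793 of the chimera table, and 48 were in all 3. A filter on low mean values left 45, 42 and 45 members for testing. The remaining 10, 12 and 8 were too low for the test. Their values lay between 3.89 and 69.9 in the first table, between 0 and 90.7 in the rescue table and between 14.9 and 125 in the chimera table.

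The study asked how loss of the interleukin-10 receptor alpha chain changes colonic macrophages. It holds 34 RNA-seq libraries in 10 groups, all from C57BL/6 mice and all of lamina propria cells sorted as CD45+CD11b+CD11cintCD64+Ly6c-CD103-. The values are reads per gene divided by a factor of each library, called normalised reads below. In the first table, 3 libraries titled CXhet were the controls of 3 titled IL10R, all from untreated mice aged 6 to 7 weeks. In the rescue table, mice of the same age gave 2 control libraries titled CX, 5 titled 5C5_IL10R, 4 titled 5C5_IL10R_P19, 4 titled 5C5_IL10R_abx and 3 titled IL10R_littermate_abx. The CX, 5C5_IL10R and 5C5_IL10R_P19 mice were untreated, and both abx groups drank antibiotics. P19 is a subunit of interleukin-23. In the chimera table, bone marrow chimeras sampled 4 weeks after chimerism gave 4 wt libraries and, from deficient marrow, 3 with ko_igg and 3 with ko_ly6g in their titles. The titles set an IgG control antibody against a neutrophil-depleting Ly6g antibody, while the treatment label gives the Ly6g antibody to all 10. The titles were followed. The sources used here do not give the promoter that drives the deletion, the genotype of the littermates, the meaning of 5C5, or the cells that the chimeric hosts kept. They also do not say that libraries of a group come from separate mice, so a p-value here measures how far these libraries spread, and that spread may be technical.

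Chaperones bind unfolded stretches of protein and let them fold again, and they work in teams. A J-domain protein delivers the client to an Hsp70 and triggers its ATP cycle, Hsp110 proteins exchange the nucleotide, and Hsp90 finishes kinases and receptors. The cytosolic chaperonin encloses actin and tubulin in a double ring, the Hsp60 and Hsp10 pair does so in mitochondria, and the endoplasmic reticulum (ER) has its own Hsp70, Hsp90 and J proteins for secreted proteins. Heat shock factor 1 switches on the cytosolic stress-inducible genes when misfolded protein builds up in the cytosol, and the unfolded protein response does so for the ER genes. Macrophages carry both programs, since they digest what they engulf and secrete cytokines.

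The promoters of 4 members are printed as 2 pairs of cytosolic and ER chaperones that rose under antibiotics in deficient mice and hold 2 kinds of stress element, not because their changes were the largest. The sequences are from RefSeq (mouse build GRCm38.p6), are written 5′ to 3′ on the gene's strand up to the base before its start, and have the matched element in capitals. Hspa1a lies at chr17:34972157-34972296 on the minus strand, Hspa1b at chr17:34959239-34959378 on the minus strand, Hspa5 at chr2:34771950-34772089 on the plus strand and Hsp90b1 at chr10:86705445-86705674 on the minus strand.
Hspa1a: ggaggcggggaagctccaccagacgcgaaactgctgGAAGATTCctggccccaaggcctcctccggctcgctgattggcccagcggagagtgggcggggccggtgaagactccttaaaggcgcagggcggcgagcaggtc
Hspa1b: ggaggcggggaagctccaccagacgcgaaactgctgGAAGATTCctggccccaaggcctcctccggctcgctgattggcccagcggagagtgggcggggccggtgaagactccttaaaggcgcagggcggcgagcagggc
Hspa5: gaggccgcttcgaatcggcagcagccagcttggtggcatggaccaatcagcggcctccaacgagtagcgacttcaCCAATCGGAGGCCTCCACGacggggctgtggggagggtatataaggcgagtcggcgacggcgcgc
Hsp90b1: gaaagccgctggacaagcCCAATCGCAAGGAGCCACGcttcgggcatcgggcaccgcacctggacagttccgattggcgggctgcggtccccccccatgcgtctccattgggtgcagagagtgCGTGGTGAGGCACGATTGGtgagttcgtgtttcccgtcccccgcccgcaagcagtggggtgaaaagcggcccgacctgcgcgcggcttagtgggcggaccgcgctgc
Hspa1a and Hspa1b hold the heat shock element core GAANNTTC, and their windows are identical at 139 of 140 bases. Hspa5 holds 1 and Hsp90b1 holds 2 copies of the ER stress response element, written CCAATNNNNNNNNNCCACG or, on the other strand, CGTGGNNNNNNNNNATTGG.

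Promoters were found for 50 of the 60 members, 67 in all, and the 250 bases before each start were searched on both strands. The heat shock element core was in 10 of these 67 promoters, from 9 members (Cct2, Dnaja1, Dnaja4, Dnajb6, Hspa1a, Hspa1b, Hspb1, Hspd1 and Hspe1), and in 6.69% of all 32851 promoters. A longer form with 3 units, GAANNTTCNNGAA or TTCNNGAANNTTC, which contains the core, was in those of Dnajb6, Hspd1 and Hspe1 and in 0.466% of all promoters. The ER stress response element was in those of Hspa5, Hsp90b1 and Dnajc3 and in 0.113% of all promoters. A match is a description of the letters in this window and not a measured binding site.

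The libraries whose reads could be recovered held 747046 to 4525047 reads, and the 4 libraries titled 5C5_IL10R_abx included the 3 shallowest of the series (747046, 877518 and 877627). Il10ra, the targeted gene, was 1.70 to 31.2 in the 3 deficient groups of the rescue table, 248 and 284 in CX, and 138 to 191 in the littermates. In the chimera table it was 32.2 to 111 in the ko groups and 247 to 827 in wt. In the first table it was 9.26, 361 and 65.9 in IL10R 1, 2 and 3 and 371 to 689 in CXhet, so the library labelled IL10R 2 lay just below the controls, and values without it are given beside the members named in that table. Il23a, which encodes P19, was not analysed here in the rescue table. The library wt 1 stood apart from the other wt libraries, with 1028567 reads and macrophage markers summing to 84659 against a lowest wt sum of 24881. Of 12 macrophage markers 10 were listed in each table. All 18 epithelial markers were listed too, at 0.277% to 2.55% of the summed values, although the gate was CD45+. None of these markers was at 0 in all libraries of a group, and in bulk RNA fewer cells of a type and less RNA per cell cannot be told apart.

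**Figure D1:**
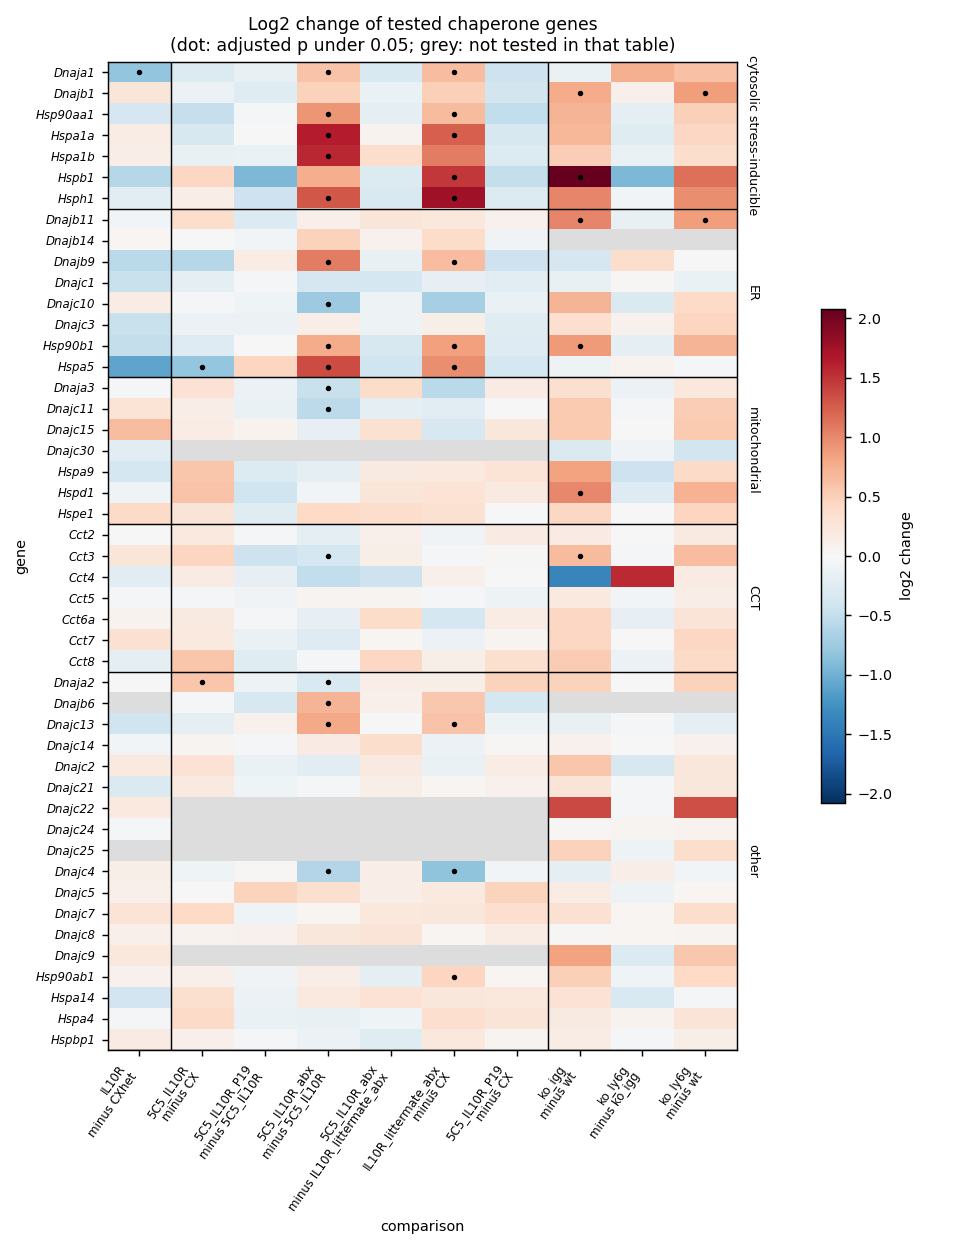
Log2 change of each tested chaperone gene (rows, ordered by compartment) in 10 comparisons (columns, left block the first table, middle block the rescue table, right block the chimera table). Red is higher and blue lower in the group named first, a dot marks an adjusted p by limma under 0.05, and grey marks genes not tested in that table. Dots gather in the cytosolic stress-inducible and ER rows of the comparisons of antibiotic-treated with untreated mice, and other rows hold dots too. In each of these comparisons 10 of 42 tested members rose, beside 30.6% of all genes in deficient mice and 16.5% in littermates.

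Under antibiotics, 5 of 7 tested cytosolic stress-inducible chaperones rose in deficient macrophages (Hspa1a, Hspa1b, Hsph1, Hsp90aa1 and Dnaja1) and none fell. Of 8 tested ER members 3 rose (Hspa5, Hsp90b1 and Dnajb9) and 1 fell (Dnajc10), and of 13 chaperonin and mitochondrial members none rose and 3 fell. In 5C5_IL10R_abx against 5C5_IL10R, 10 of 42 tested members rose and 6 fell, beside 30.6% and 27.3% of all 6612 genes tested. This is 38.1% of the members, beside 57.8% of all genes. The Hsp family had 6 of 14 higher and none lower, with a median log2 change of 0.59 against 0.03 for all genes tested. The Dnaj family had 4 higher and 5 lower of 21 (median 0.11), and the Cct family 0 higher and 1 lower of 7 (median -0.18). Among members with libraries that did not overlap, 9 were higher and 2 lower, beside 22.7% and 19.5% of all genes.

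Hspa1a and Hspa1b, the inducible cytosolic Hsp70 pair printed above, had the largest log2 changes of the 42 tested members with all libraries, but not without 5C5_IL10R_abx_160 and 5C5_IL10R_abx_161, when Hspa5 (1.38) was above Hspa1a (1.18) and Hspa1b (0.83). Hspa1a was 1684, 1816, 2164, 2567 and 2596 normalised reads in the 5 untreated deficient libraries and 7041, 11932, 4525 and 5132 in the 4 treated ones, in the order of their titles (5C5_IL10R_27, _32, _61, _67 and _68, then 5C5_IL10R_abx_160, _161, _495 and _497), which is kept below. The lowest treated library was above the highest untreated one, and 5C5_IL10R_abx_161 was far above the other treated libraries. The log2 change of Hspa1a was 1.64 (SE 0.26, adjusted p by limma = 2.89e-05). Hspa1b was 1282, 1612, 1768, 1987 and 1918 untreated and 6042, 11679.6, 2940.0 and 3102 treated, a log2 change of 1.57 (SE 0.35, adjusted p by limma = 0.00102). Again no library overlapped, and 5C5_IL10R_abx_160 and 5C5_IL10R_abx_161 were well above the other 2. Of the 50-base words of the Hspa1a transcripts, 58.8% also occur in Hspa1b, and 62.3% of those of Hspa1b occur in Hspa1a, so reads may have been split between them and their separate values are uncertain. Words found in transcripts of other genes, pseudogenes among them, also made up 50.1% of those of Hsp90aa1, 48.8% of Hspb1, 39.7% of Hspd1, 36.1% of Hspe1, 22.4% of Dnajb6 and 17.7% of Dnaja1, so the values of these 6 carry the same limit in every comparison.

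Hsph1, the Hsp110 that exchanges nucleotide on Hsp70, was 222, 318, 202, 279 and 253 untreated and 588, 1057, 400.1 and 592 treated, with a log2 change of 1.30 (SE 0.35, adjusted p by limma = 0.00411). Hsp90aa1, the stress-inducible cytosolic Hsp90, was 170.4, 136, 183, 189.8 and 179 untreated and 322, 319.7, 263 and 403 treated, a log2 change of 0.92 (SE 0.17, adjusted p by limma = 0.000137). Dnaja1, a J protein partner of cytosolic Hsp70, was 113, 118, 137, 109 and 126 untreated and 235, 167, 148 and 189 treated, a log2 change of 0.59 (SE 0.17, adjusted p by limma = 0.00587). In all 3 genes every treated library lay above every untreated one. Dnajb1, the J protein that works with inducible Hsp70, was 637, 585, 592, 708 and 516 untreated and 884, 1354, 478 and 869 treated, and its log2 difference of 0.47 (SE 0.26, adjusted p by limma = 0.127) missed the threshold. Library 5C5_IL10R_abx_495 lay below all 5 untreated libraries and the other 3 treated ones lay above them. The small heat shock protein Hspb1 differed by 0.76 (SE 0.39, adjusted p by limma = 0.107), and Hsp90ab1, the constitutive cytosolic Hsp90, by 0.14 (SE 0.12, adjusted p by limma = 0.351).

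**Figure D2:**
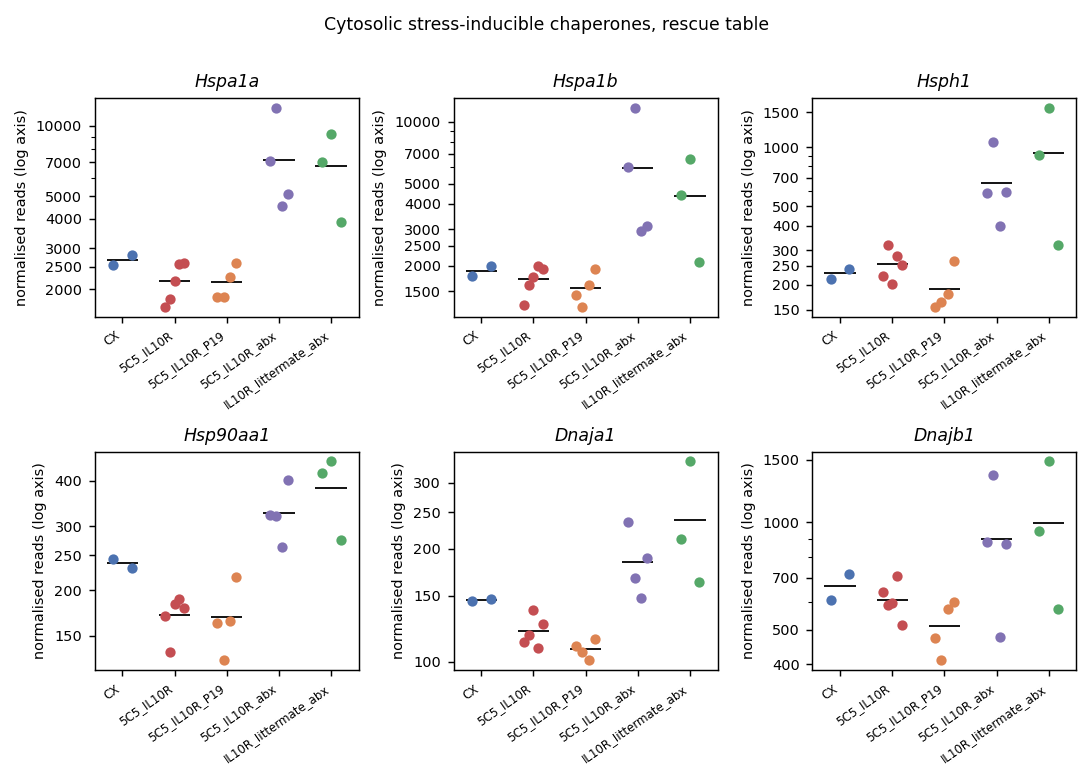
Normalised reads (vertical log axis) of 6 cytosolic stress-inducible chaperones in each library of the rescue table, by group. Points are libraries and bars are group means. For Hspa1a all 4 treated deficient libraries and all 3 treated littermates sit at or above 3894, and all untreated libraries sit at or below 2806.

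The spread between treated libraries was shared by these genes. Summed over the 8 listed cytosolic stress-inducible members, the 4 treated deficient libraries ran from 8893 to 26756 and the 5 untreated ones from 4209 to 5980. Library 5C5_IL10R_abx_495 was the lowest of its group in 7 of the 8 members, and 5C5_IL10R_abx_161 the highest in 4 of 8. Treated libraries carry title numbers in 2 ranges, and whether these mark a batch is not stated. Without 5C5_IL10R_abx_160 and 5C5_IL10R_abx_161, Hsph1 changed by 0.95 (adjusted p by limma = 0.0738) and Dnaja1 by 0.47 (adjusted p by limma = 0.0545), so both calls were lost, as were those of Dnajb6, Dnajc4, Dnaja3 and Cct3, while 6 other members were called and the count stayed at 16 (56.2% of all genes called). Those 6 were Cct2 (-0.47), Cct6a (-0.48), Hspa9 (-0.56), Hspd1 (-0.69) and Dnajc7 (-0.39), all lower, and Dnajb14 (0.81), higher. Without 5C5_IL10R_abx_495 and 5C5_IL10R_abx_497, Hsph1 and Dnaja1 remained, at 1.64 (adjusted p by limma = 0.00554) and 0.72 (adjusted p by limma = 0.00747), and the calls of Dnajc10 (-0.46, adjusted p by limma = 0.0826), Dnaja2, Dnajb6 and Cct3 were lost. This fit called 18 members (55.2% of all genes called) and gained Hspe1 (0.93), Dnajb1 (0.85), Dnajc5 (0.60) and Dnajc7 (0.48) as higher and Cct4 (-1.11) and Dnajc1 (-0.70) as lower. The 2 ranges of treated libraries thus gave Dnajc7 calls of opposite sign. Hspa5, Hspa1a, Hspa1b, Hsp90aa1, Hsp90b1, Dnajb9, Dnajc11 and Dnajc13 were called under all 16 alternatives run, but the sizes of the Hsp70 pair moved, from 0.83 to 2.31 for Hspa1b and from 1.18 to 2.10 for Hspa1a. Those of Hspa5 stayed between 1.27 and 1.41.

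Treated libraries lay closer together for the ER members, whose 10 listed genes summed to 4888 to 5492 in 5C5_IL10R_abx and 2314 to 3009 in 5C5_IL10R. Hspa5, the ER Hsp70 also known as BiP, was 1286, 1236, 1276, 926 and 1270.1 untreated and 2762, 3299, 3023 and 3182 treated, a log2 change of 1.36 (SE 0.17, adjusted p by limma = 9.74e-07). Hsp90b1, the ER Hsp90, was 880.4, 665, 589, 665 and 747 untreated and 1214, 1333, 1183 and 1093 treated, a log2 change of 0.78 (SE 0.13, adjusted p by limma = 6.21e-05). Dnajb9, an ER J protein that holds the stress sensor IRE1 in check through Hspa5, was 72.8, 73.6, 108, 82.0 and 84.5 untreated and 207, 173, 151 and 174 treated, a log2 change of 1.06 (SE 0.17, adjusted p by limma = 3.21e-05). None of these groups overlapped, and the treated libraries of Hspa5 lay within 2762 to 3299. Dnajc10, an ER reductase with a J domain, went the other way, at 94.9, 90.2, 96.7, 118 and 97.3 untreated and 60.9, 84.6, 57.6 and 39.4 treated, and fell by 0.75 on the log2 scale (SE 0.20, adjusted p by limma = 0.00345). Of the 8 tested ER members, 3 rose, 1 fell and 4 did not pass. Dnajb11, a BiP partner, differed by 0.11 and Dnajc3, which also restrains the translation block of the unfolded protein response, by 0.14 (adjusted p by limma = 0.539 and 0.339).

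**Figure D3:**
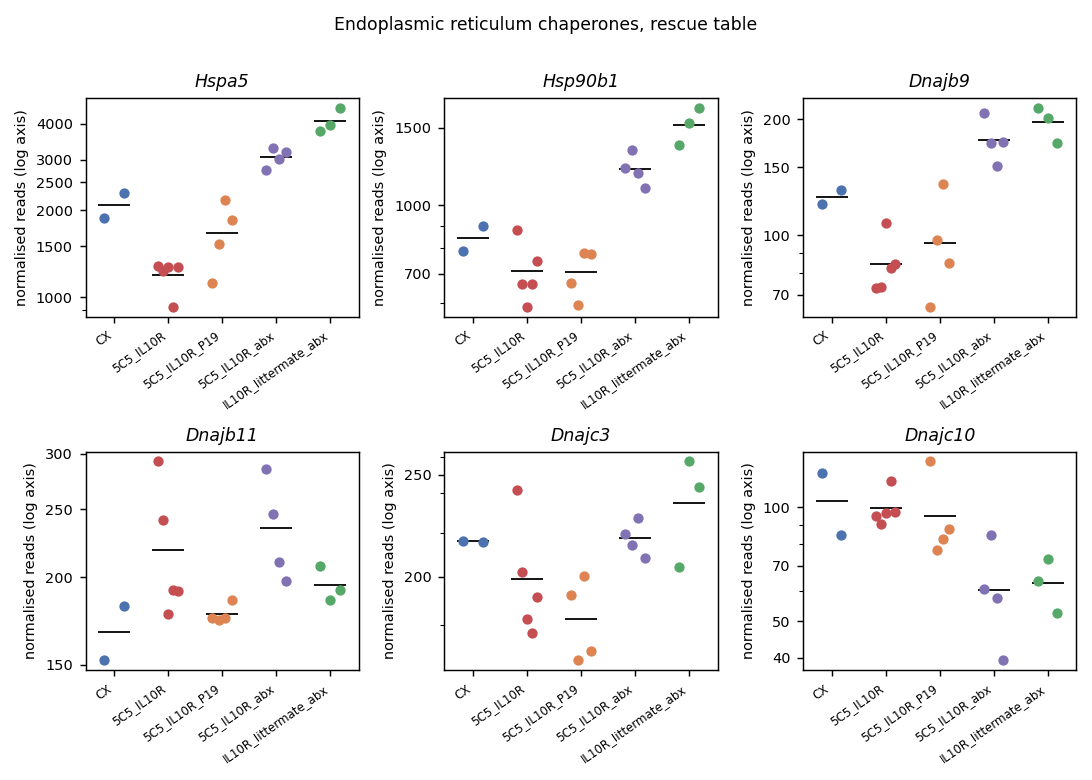
Normalised reads (vertical log axis) of 6 endoplasmic reticulum chaperones in each library of the rescue table, by group. Points are libraries and bars are group means. Hspa5 spans 926 to 1286 in 5C5_IL10R, 1878 and 2306 in CX, and 2762 to 4535 in the antibiotic-treated groups, while Dnajb11 and Dnajc3 overlap between treated and untreated deficient libraries.

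With all libraries no chaperonin or mitochondrial member rose under antibiotics, but these compartments differed between the 2 ranges of treated libraries. Hspe1 was called higher without 5C5_IL10R_abx_495 (0.64, adjusted p by limma = 0.0373) and without both 5C5_IL10R_abx_495 and 5C5_IL10R_abx_497, and Cct2, Cct6a, Hspa9 and Hspd1 were called lower without 5C5_IL10R_abx_160 and 5C5_IL10R_abx_161, as given above. The chaperonin subunits differed by Cct2 (-0.18), Cct3 (-0.37), Cct4 (-0.51), Cct5 (0.05), Cct6a (-0.17), Cct7 (-0.27) and Cct8 (-0.02) on the log2 scale, and Cct3 was the only called one of the 7 (adjusted p by limma = 0.0379). Cct4 was 31.973 normalised reads in 5C5_IL10R_abx_161, and 121.883, 171.245 and 122.991 in 5C5_IL10R_abx_160, _495 and _497. Only 5C5_IL10R_abx_161 lay below the untreated range of 119.637 to 153.484. The lower call of Cct4 given above kept this low library. Cct3 was 388, 353, 265, 251 and 257 untreated and 226, 228, 269.6 and 201 treated, with 5C5_IL10R_abx_495 inside the untreated range and the other 3 treated libraries below it. The calls of Cct3 and Dnaja2 were each lost under 8 of 16 alternatives and that of Dnajb6 under 7. Of the 6 tested mitochondrial members 0 rose and 2 fell, Dnaja3 (-0.47) and Dnajc11 (-0.55), a J protein of the inner membrane organising complex. The mitochondrial Hsp70 Hspa9 (-0.18), the Hsp60 Hspd1 (-0.06) and the Hsp10 Hspe1 (0.41) did not pass (adjusted p by limma = 0.444, 0.896 and 0.179). In 5C5_IL10R_abx_161 Hspd1 was 545 and Hspe1 was 754, above every other library of the table for both genes. Among the members placed in none of these compartments, Dnajc13, an endosomal J protein, rose by 0.79 (SE 0.14, adjusted p by limma = 0.000103) from 78.0, 121, 106.3, 108 and 108 to 172, 203, 166 and 178, with no overlap. Dnajb6 rose by 0.71, and Dnajc4 and Dnaja2 fell by 0.61 and 0.31, with libraries that overlapped.

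Partner genes of these chaperones were taken from lists of the same pathways. Of 21 tested genes of ER folding and the unfolded protein response, 7 rose and 2 fell, led by the stress transcription factor Ddit3 at 2.84 (SE 0.22, adjusted p by limma = 4.72e-09), Selk (1.42), Atf4 (1.47), which drives Ddit3, and Herpud1 (1.08), an ER degradation factor. Their median was 0.40. Of 19 cytosolic co-chaperones and heat shock factor genes, 4 rose and 2 fell, among them the Hsp70 and Hsp90 adaptors St13 (1.05) and Fkbp4 (-1.05). Of 12 genes of mitochondrial folding and proteolysis 1 rose and 8 fell (median -0.56), including Grpel1 (-0.83), the nucleotide exchanger of Hspa9, and the protease subunit Clpp (-1.13). Of 7 genes holding Tcp1, the chaperonin subunit outside the naming rule, and the prefoldins that feed it, 2 rose and 2 fell, and Tcp1 itself changed by -0.87.

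Other gene groups moved with the chaperones in the same libraries. Of 24 tested immediate-early genes, which cells switch on within minutes of stimulation or handling, 22 rose and 1 fell, and their sums were 11229 to 18386 untreated and 39334 to 50851 treated. All 10 tested macrophage markers rose and all 18 epithelial markers fell. Of 9 stromal and endothelial markers 6 fell and none rose, of 3 dendritic cell markers 2 rose and none fell, and of 4 monocyte markers 1 rose and 2 fell. Of 5 B and plasma cell markers 2 rose and 2 fell, of 2 neutrophil markers 1 rose, and the only tested T and NK cell marker rose (2.01). The epithelial markers made up 1.74% to 2.29% of the summed values in 5C5_IL10R, 0.332% to 0.512% in 5C5_IL10R_abx and 0.277% to 0.417% in the treated littermates. The shallowest libraries were also among the treated ones. The part of these differences in the chaperone result was not tested.

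**Figure D4:**
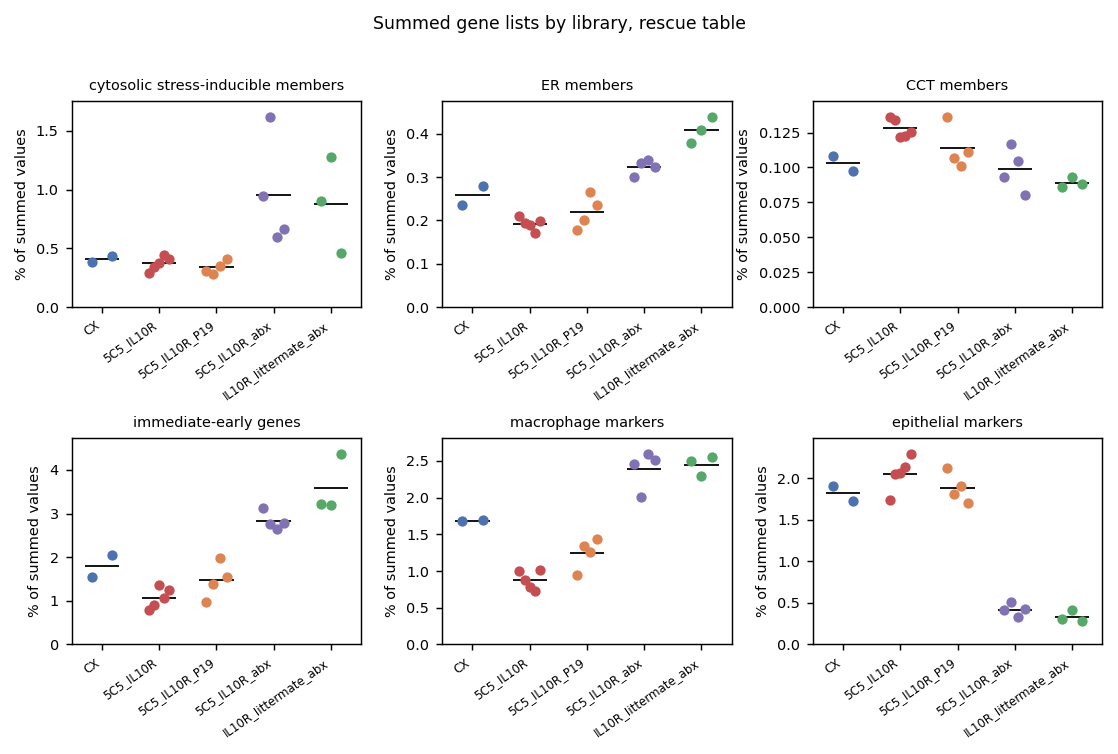
Summed values of 6 gene lists as a percentage of all summed values (vertical axis) in each library of the rescue table, by group. Points are libraries and bars are group means. Cytosolic stress-inducible and ER members, immediate-early genes and macrophage markers are higher in the antibiotic-treated groups than in 5C5_IL10R, epithelial markers are lower there, and the CCT members span 0.0805% to 0.136% over all deficient libraries.

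The treated littermates gave a second comparison, although the CX controls are only 2 libraries and the littermates' genotype is not stated. In IL10R_littermate_abx against CX, 10 of 42 members rose and 1 fell, beside 16.5% and 17.5% of all genes, or 34.0% in both directions. The Hsp family had 7 of 14 higher and none lower (median 0.55, all genes 0.04), Dnaj 3 higher and 1 lower of 21 (median 0.11), and Cct 0 of 7 called (median -0.03). Members whose libraries did not overlap numbered 15 higher and 6 lower, beside 33.1% and 29.1% of all genes. This comparison shares no library with the one above.

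Hsph1 was 215 and 242 in CX and 913, 1582 and 319 in the littermates (IL10R_littermate_abx_490, _491 and _496, in that order), a log2 change of 1.75 (SE 0.47, adjusted p by limma = 0.00859). Hspa1a was 2549 and 2806 in CX and 7032, 9184 and 3894 in the littermates, a log2 change of 1.24 (SE 0.36, adjusted p by limma = 0.0116). In both genes IL10R_littermate_abx_491 was highest and IL10R_littermate_abx_496 lowest, and even the latter was above both controls. The same order held in 8 of 8 cytosolic stress-inducible members, whose sums ran from 7425 to 20048 in the littermates and from 5652 to 6205 in CX. Hspa1b, at 1785 and 1981 and 4396, 6565 and 2081, differed by 1.06 (SE 0.48, adjusted p by limma = 0.101) and did not pass. Hspb1, a small heat shock protein that holds unfolded clients, was 82.8 and 63.2 in CX and 297, 351 and 79.0 in the littermates, and changed by 1.47 (SE 0.53, adjusted p by limma = 0.0404) although IL10R_littermate_abx_496 lay between the controls. Hsp90aa1 rose by 0.65, Dnaja1 by 0.64 and Hsp90ab1 by 0.45, while Dnajb1 differed by 0.49 (adjusted p by limma = 0.306).

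In the ER group, Hspa5 was 1878 and 2306 in CX and 3768, 3962 and 4535 in the littermates, a log2 change of 0.97 (SE 0.22, adjusted p by limma = 0.0026). Hsp90b1 was 787 and 900.1 and 1370.2, 1539 and 1664, a change of 0.85 (SE 0.18, adjusted p by limma = 0.00144). Both genes had no overlap, and here IL10R_littermate_abx_496 was the highest littermate in each, the reverse of its place among the cytosolic genes. Dnajb9 rose by 0.64, Dnajb11 differed by 0.22 and Dnajc3 by 0.11, and the other called members were Dnajc13 (0.60) and Dnajc4 (-0.83). The mitochondrial Hspa9, Hspd1 and Hspe1 differed by 0.20, 0.29 and 0.32, and the Cct subunits by Cct2 (-0.08), Cct3 (-0.03), Cct4 (0.11), Cct5 (-0.03), Cct6a (-0.36), Cct7 (-0.12) and Cct8 (0.13), none of them called. Of the ER folding list 3 of 21 rose and none fell, Atf4 (1.49), Ddit3 (1.67) and Selk (0.80), and of the mitochondrial list 1 rose and 2 fell of 12. Of the cytosolic co-chaperones 4 rose and 2 fell of 19, and of Tcp1 and the prefoldins 1 rose and 1 fell of 7.

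The number of calls in the littermate comparison was 2 without CX 1, 4 without CX 3, 5 without IL10R_littermate_abx_490 and 6 without IL10R_littermate_abx_491, in place of 11. All genes called were 20.0%, 21.8%, 26.5% and 31.1% in these fits. Without CX 1 the calls of Hspa5 (0.82, adjusted p by limma = 0.0509), Hsph1 and Hspa1a were lost, and without CX 3 or IL10R_littermate_abx_491 that of Hspa1a was lost. Hsp90b1 was called under all 10 alternatives run, with log2 changes from 0.75 to 0.95. Immediate-early genes (17 of 24 higher), macrophage markers (5 of 10 higher) and epithelial markers (18 of 18 lower) moved here as well, and their part was not tested.

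Treated deficient and treated littermate macrophages were also compared directly. In 5C5_IL10R_abx against IL10R_littermate_abx, limma called 0 of 42 members (0.0302% of all genes called), 3 had an unadjusted p under 0.05 (15.1% of all genes), and edgeR called 0. Hspa5 differed by -0.41 (SE 0.19, adjusted p by limma = 0.309), Hsp90b1 by -0.34 (SE 0.15, adjusted p by limma = 0.309), Hspa1a by 0.07, Hspa1b by 0.36, Hsph1 by -0.32 and Dnaja1 by -0.32. Every deficient library was below every littermate for Hspa5 and Hsp90b1 (with Hspbp1 3 members lower, and 1 higher, without overlap, beside 3.04% and 4.82% of all genes). Of the remaining named members, Hsp90aa1, Hsp90ab1, Dnajb1, Hspb1, Dnajb9, Dnajb11 and Dnajc3 differed by -0.21, -0.20, -0.14, -0.28, -0.16, 0.25 and -0.11, and Hspa9, Hspd1 and Hspe1 by 0.19, 0.26 and 0.36. The Cct subunits 2 to 8 differed by 0.11, 0.12, -0.44, 0.05, 0.38, 0.05 and 0.43. Without 5C5_IL10R_abx_495 and 5C5_IL10R_abx_497, limma called 7 members, 6 of them higher, among them Hspa1b (1.10), Hspe1 (0.88), Cct6a (0.69) and Cct8 (0.73), and Cct4 (-1.04), whose low 5C5_IL10R_abx_161 value is given above, was the lower one. That fit called 19.9% of all genes, so the members' count of 7 of 42 was not above the share of genes at large. Without 5C5_IL10R_abx_160 and 5C5_IL10R_abx_161 limma called 0 members (0.0302% of all genes). The littermate titles (IL10R_littermate_abx_490, _491 and _496) fall in the number range of 5C5_IL10R_abx_495 and 5C5_IL10R_abx_497. In the fit without 5C5_IL10R_abx_495 and 5C5_IL10R_abx_497, deficiency and number range therefore cannot be told apart. Whether deficiency acted differently with and without antibiotics was tested as an interaction, which called 0 of 42 members (0.106% of all genes) by limma and 0 by edgeR, with 0 at an unadjusted p under 0.05 (10.6% of all genes). Under the interaction Hspa5 differed by -0.39 (SE 0.28, adjusted p by limma = 0.679) and Hspa1a by -0.40 (SE 0.44, adjusted p by limma = 0.818).

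Without antibiotics, ER chaperone values were mostly lower in deficient macrophages of the first and the rescue table, but few members were called. Of 8 tested ER members, 6 were below 0 on the log2 scale in the first table and 7 in the rescue table. Of the tested genes that are not members, 3385 of 6721 and 3360 of 6570 were above 0 there. This did not hold in the chimera table, where 4 of 7 tested ER members were above 0 in ko_igg against wt. In ko_ly6g against wt 5 of 7 were above 0, and of the 6549 genes that are not members 3626 and 3623 were. In IL10R against CXhet, 0 of 45 tested members rose and 1 fell, beside 4.57% and 4.12% of all 6766 genes tested, or 8.69% in both directions. The called member was Dnaja1, at 268, 270.3 and 245 in CXhet and 152, 146 and 145 in IL10R 1, 2 and 3, a log2 change of -0.81 (SE 0.16, adjusted p by limma = 0.0156). All 3 IL10R libraries were far below all 3 controls and differed little from each other. Without the library labelled IL10R 2 the change was -0.81 (adjusted p by limma = 0.0270). The call was lost without CXhet 2 (adjusted p by limma = 0.0838) or without IL10R 3 (adjusted p by limma = 0.0651).

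Hspa5 was 5517, 3426 and 3504 in CXhet and 2963, 1370.5 and 1663 in IL10R, a log2 difference of -1.10 (SE 0.33, adjusted p by limma = 0.0754), with the groups apart and CXhet 1 and IL10R 1 highest in theirs. Without IL10R 1 it was called (-1.42, adjusted p by limma = 0.0243), which made the count of members 2 (8.69% of all genes called). Hsp90b1 was 1949, 1842 and 1480.3 and 1468, 1291 and 1009.7, a difference of -0.49 (SE 0.22, adjusted p by limma = 0.206). Dnajb9 (-0.56), Dnajc3 (-0.47) and Dnajc1 (-0.46) were likewise lower in every IL10R library than in any CXhet one. For Dnajb9 and Dnajc1 the gap was under 1 read, which is worth 1.18 in IL10R 3 and 1.39 in CXhet 3. Dnajb9 was 165.9 in IL10R 3 and 166.8 in CXhet 3, and Dnajc1 was 84.73 and 84.79. Without the library labelled IL10R 2, Hspa5 differed by -0.87 (adjusted p by limma = 0.176), Hsp90b1 by -0.52 (adjusted p by limma = 0.295) and Dnajc1 by -0.17 (adjusted p by limma = 0.708). Dnajb9, Dnajc3 and Dnajb11 then differed by -0.40, -0.31 and -0.05. All members without overlap numbered 8 lower and 5 higher, beside 15.7% and 16.7% of all genes. Of the 8 tested ER members 5 were lower without overlap, 0 were called by limma, 2 had an unadjusted p under 0.05 (26.3% of all genes), and their median was -0.46 against 0.00 for all genes. Dnajb11 differed by -0.06. In the ER folding list 3 of 22 genes fell and none rose, Ddit3 at -1.42 (SE 0.31, adjusted p by limma = 0.0253), Herpud1 (-1.55) and Creld2 (-0.83).

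The cytosolic members other than Dnaja1 gave no call. Hspa1a was 7233, 6758 and 5998 in CXhet and 7122, 8872 and 6353 in IL10R, and Hspa1b differed by 0.14, with overlapping libraries in both (adjusted p by limma = 0.72 and 0.759). Hspb1 was lower in all 3 IL10R libraries (167, 118 and 166) than in CXhet (220.5, 204 and 254), a difference of -0.60 (SE 0.20, adjusted p by limma = 0.101). Hsph1, Hsp90aa1, Hsp90ab1 and Dnajb1 differed by -0.22, -0.35, 0.09 and 0.26, and the mitochondrial Hspa9, Hspd1 and Hspe1 by -0.37, -0.09 and 0.39. The Cct subunits 2 to 8 differed by 0.01, 0.26, -0.22, -0.03, 0.08, 0.32 and -0.19, a median of 0.01. Without the library labelled IL10R 2, Hspb1 differed by -0.44, and Hspa1a, Hspa1b, Hsph1, Hsp90aa1, Hsp90ab1 and Dnajb1 by 0.02, -0.02, -0.06, -0.12, 0.06 and 0.36. Hspa9, Hspd1 and Hspe1 then differed by -0.28, -0.06 and 0.23, and the Cct subunits 2 to 8 by 0.03, 0.16, -0.07, -0.10, 0.04, 0.22 and -0.14. In that fit Dnaja1 was the only member called, beside 6.95% of all genes. None of the cytosolic co-chaperones (17 tested), the Tcp1 and prefoldin genes (7) or the mitochondrial folding genes (12) was called by limma. Immediate-early genes summed to 68192 to 87257 in CXhet and 45582 to 61105 in IL10R, with 4 of 24 called lower. The 6 listed neutrophil markers summed to 135 to 236 in CXhet and 502 to 791 in IL10R, with 2 of 3 tested called higher, and the 5 monocyte markers to 1450 to 1941 and 1423 to 4693, with 3 of 5 called higher and 1 lower. The part of these differences in the chaperone values was not tested.

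In the rescue table, 5C5_IL10R against CX gave 1 higher and 1 lower of 42 members, beside 3.87% and 6.03% of all genes, or 9.91% in both directions. Hspa5 fell, from 1878 and 2306 in CX to 1286, 1236, 1276, 926 and 1270.1 in 5C5_IL10R, a log2 change of -0.81 (SE 0.21, adjusted p by limma = 0.0193). All 5 deficient libraries lay below both controls, and 5C5_IL10R_67 was the lowest. Dnaja2, a cytosolic J protein, rose from 141 and 163 to 203, 260.3, 222, 223 and 228, a change of 0.58 (SE 0.16, adjusted p by limma = 0.0286). Without CX 1, neither Hspa5 (-0.95, adjusted p by limma = 0.112) nor Dnaja2 (0.47, adjusted p by limma = 0.323) was called, and without CX 3 their adjusted p by limma was 0.190 and 0.0905. Without 5C5_IL10R_32, Dnaja2 was lost (adjusted p by limma = 0.0650). A fit of these 2 groups alone called 6 members, adding Hspa9 (0.57), Hspd1 (0.60) and Cct8 (0.58) as higher and Dnajb9 (-0.59) as lower. It also called more of all genes, 16.5% in place of 9.91%, so 6 of 42 members was not above that share.

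Dnaja1, the member called in the first table, was 145 and 147 in CX and 113, 118, 137, 109 and 126 in 5C5_IL10R, a difference of -0.28 (SE 0.21, adjusted p by limma = 0.434). It lay below the controls in all 5 libraries. Hsp90aa1 was likewise lower without overlap (-0.48). Hsp90b1 (-0.26), Dnajb11 (0.37) and Dnajc3 (-0.13) overlapped with the controls. Hspa1a, Hspa1b, Hsph1, Hsp90ab1, Dnajb1 and Hspb1 differed by -0.33, -0.15, 0.14, 0.11, -0.12 and 0.43. The Cct subunits 2 to 8 differed by 0.21, 0.45, 0.18, -0.03, 0.19, 0.20 and 0.58, and Hspe1 by 0.26. Members without overlap numbered 10 higher, 3 of them Cct subunits, and 4 lower, beside 18.8% and 18.3% of all genes. Of the ER folding list 2 of 21 fell, Ddit3 at -1.71 (SE 0.27, adjusted p by limma = 0.0017) and Herpud1 (-0.87), and none of the other 3 partner lists had a called gene by limma. Immediate-early genes (10 of 24 lower) and macrophage markers (8 of 10 lower, sums of 9923 to 14258 against 24120 and 24673) fell in the same libraries, and their part was not tested.

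No chaperone was called when loss of P19 was added to loss of the receptor. In 5C5_IL10R_P19 against 5C5_IL10R, limma called 0 of 42 members (2.43% of all genes called), 4 had an unadjusted p under 0.05 (16.6% of all genes), and edgeR called 0. Hspa5 was 1121, 1534, 2169 and 1858 in the P19 libraries (5C5_IL10R_P19_100, _105, _106 and _107, in that order), a difference of 0.45 (SE 0.17, adjusted p by limma = 0.165). Library 5C5_IL10R_P19_100 lay inside the range of 5C5_IL10R and the other 3 lay above all 5 of its libraries. Without 5C5_IL10R_P19_100, Hspa5 (0.62, adjusted p by limma = 0.0179) was called higher and Cct3 (-0.53, adjusted p by limma = 0.0464) lower. That fit called 5.7% of all genes. With all libraries the lowest adjusted p by limma was 0.114, for Dnajc5, a J protein of synaptic and secretory vesicles. Library 5C5_IL10R_P19_100 had the highest value of its group in 7 of 7 Cct members, and 5C5_IL10R_P19_107 in 8 of 8 cytosolic stress-inducible members.

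Hspa1a was 1860.0, 1851, 2261 and 2597 in these libraries, overlapping with 5C5_IL10R, with a difference of -0.01. Hspa1b, Hsph1, Hsp90aa1, Hsp90ab1, Dnaja1, Dnajb1 and Hspb1 differed by -0.14, -0.43, -0.04, -0.07, -0.15, -0.25 and -0.93, and Hsp90b1, Dnajb9, Dnajb11 and Dnajc3 by 0.00, 0.15, -0.28 and -0.12. The mitochondrial Hspa9, Hspd1 and Hspe1 differed by -0.29, -0.41 and -0.25, and the Cct subunits 2 to 8 by -0.03, -0.43, -0.17, -0.07, -0.03, -0.14 and -0.25. Of the partner lists only the ER folding list had a called gene, Ddit3, at 1.02 (SE 0.22, adjusted p by limma = 0.0174). Against CX, the P19 group gave 0 called members by limma (0.0302% of all genes) and 0 by edgeR, with 3 at an unadjusted p under 0.05 (5.04% of all genes). There the values were Hspa5 (-0.36), Hsp90b1 (-0.26), Dnajb9 (-0.44), Dnajb11 (0.09), Dnajc3 (-0.25), Hspa1a (-0.33), Hspa1b (-0.29), Hsph1 (-0.29), Hsp90aa1 (-0.52), Hsp90ab1 (0.04), Dnaja1 (-0.43), Dnajb1 (-0.37) and Hspb1 (-0.50) for the ER and cytosolic members. They were Hspa9 (0.28), Hspd1 (0.19), Hspe1 (0.01), Cct2 (0.18), Cct3 (0.02), Cct4 (0.01), Cct5 (-0.10), Cct6a (0.16), Cct7 (0.05) and Cct8 (0.33) for the mitochondrial and chaperonin members.

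In the chimeras, limma called chaperones of several compartments higher in colonic macrophages of mice with deficient marrow than of wt ones, and edgeR called none. In ko_igg against wt, 6 of 45 tested members rose and none fell, beside 5.73% and 3.46% of all 6594 genes tested, or 9.19% in both directions. The log2 change was above 0 in 37 of 45, with a median of 0.43 against 0.06 for all genes tested, and the family medians were 0.60 (Hsp), 0.33 (Dnaj) and 0.43 (Cct). All 53 listed members together made up 1.01% to 1.12% of the summed values in ko_igg, 0.872% to 1.03% in ko_ly6g and 0.724% to 0.754% in wt. Members without overlap numbered 19 higher and 1 lower, beside 17.1% and 11.5% of all genes.

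Dnajb11, the ER J protein that brings clients to BiP, was 253, 353, 302 and 272 in wt 1 to 4 and 588, 631 and 564 in ko_igg 14, 16 and 18, a log2 change of 1.02 (SE 0.17, adjusted p by limma = 0.00452). Hsp90b1 was 932, 909, 903 and 785 in wt and 1778, 2226 and 1101 in ko_igg, a change of 0.89 (SE 0.25, adjusted p by limma = 0.0487). No library overlapped, and ko_igg 18 was much closer to wt for Hsp90b1 than the other 2. Hspa5, in contrast, was 2316, 1473, 1607 and 2074 in wt and 1767, 1577 and 1775 in ko_igg, and differed by -0.11 (SE 0.21, adjusted p by limma = 0.773) with overlap. Dnajb9 differed by -0.34 and Dnajc3 by 0.35 (adjusted p by limma = 0.193 and 0.168). In the ER folding list 4 of 22 rose and none fell, namely the oxidase Ero1l at 1.61 (SE 0.22, adjusted p by limma = 0.00223), Creld2 (1.00), the lectin chaperone Calr (0.75) and the disulfide isomerase P4hb (0.70).

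In the cytosol, Hspb1 was 23.8, 34.8, 51.4 and 15.7 in wt and 125, 113 and 137 in ko_igg, a change of 2.08 (SE 0.41, adjusted p by limma = 0.0122). Dnajb1 was 646, 664, 662 and 606 and 985, 1011 and 1333, a change of 0.77 (SE 0.18, adjusted p by limma = 0.0256). Both were apart in every library, and the wt libraries of Dnajb1 lay close together. The co-chaperone Bag3, which links Hsp70 and small heat shock proteins to autophagy, rose by 0.86 and was the only one of 19 co-chaperones called. Hspa1a was 4355, 1626, 2083 and 2014 in wt and 3117, 3336 and 5058 in ko_igg, a difference of 0.68 (SE 0.34, adjusted p by limma = 0.215), with wt 1 inside the ko_igg range. Without wt 1 it was called, at 0.98 (adjusted p by limma = 0.0173). Hspa1b, Hsph1, Hsp90aa1, Hsp90ab1 and Dnaja1 differed by 0.51, 1.02, 0.70, 0.50 and -0.14 and did not pass.

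Hspd1, the mitochondrial Hsp60, was 220.3, 441, 407 and 438 in wt and 761, 839 and 594 in ko_igg, a change of 0.99 (SE 0.26, adjusted p by limma = 0.0391). Cct3 was 381, 580.2, 483 and 389 and 718, 741 and 681, a change of 0.66 (SE 0.18, adjusted p by limma = 0.0474). Neither overlapped, and wt 1 was the lowest library for both. Cct2, Cct5, Cct6a, Cct7 and Cct8 differed by 0.17, 0.21, 0.43, 0.44 and 0.52, and Hspa9 and Hspe1 by 0.83 and 0.43. Cct4 differed by -1.38, and there ko_igg 16 held 8.87 normalised reads, where ko_igg 14 and 18 held 136 and 151 and wt held 134 to 196. None of the 12 mitochondrial folding genes, and none of the 6 tested Tcp1 and prefoldin genes, was called by limma.

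**Figure D5:**
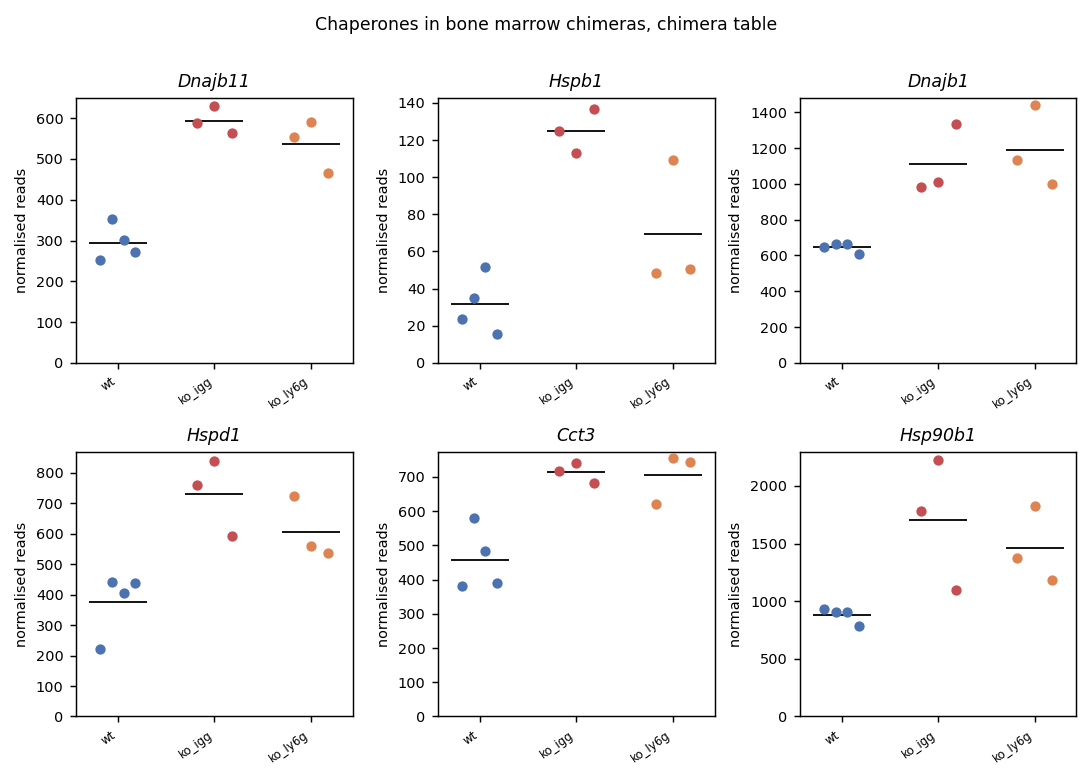
Normalised reads (vertical axis from 0) of the 6 chaperones called in ko_igg against wt, in each library of the chimera table. Points are libraries and bars are group means. For Dnajb1 the 4 wt libraries lie between 606 and 664 and all 6 ko libraries at or above 985, and for Hspb1 the ko_ly6g libraries reach down to 48.3, below the highest wt library at 51.4.

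The count depended on single libraries. Leaving out wt 1 raised the count from 6 to 13 and kept all 6, with 15.8% of all genes called in place of 9.19%. Leaving out ko_igg 14 or ko_igg 16 lowered it to 1 (3.08% and 3.34% of all genes), and wt 3 or wt 4 to 2 (5.10% and 5.19%). Dnajb11 was called in each of these fits. The count test in edgeR, on the 8 libraries with recovered reads, called 0 members in ko_igg against wt, beside 56 of all genes (0.849%). Macrophage markers were below wt in ko_igg in 10 of 10 (median -0.66, 1 called) and summed to 18635 to 29089 against 24881 to 84659. Monocyte markers summed to 719 to 967 in wt and 1174 to 3022 in ko_igg, and neutrophil markers to 122 to 280 in wt and 265 to 1035 in ko_igg. The part of these lists in the chaperone values was not tested. With a rescaling of libraries by edgeR's TMM method 4 members were called, and the genes called higher went from 378 of 606 to 293 of 576.

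No chaperone was called between the 2 antibodies given to deficient chimeras. In ko_ly6g against ko_igg, limma called 0 of 45 members (0.0% of all genes), 1 had an unadjusted p under 0.05 (1.93% of all genes), and edgeR called 0. Hspb1 was 48.3, 109 and 50.3 in ko_ly6g 5, 6 and 7, all below the 3 ko_igg libraries, a difference of -0.94 (SE 0.44, adjusted p by limma = 1). Dnaja1 was 147, 160.9 and 165 against 127, 54.7 and 117, higher without overlap, a difference of 0.75 (SE 0.33, adjusted p by limma = 1). Members without overlap numbered 2 higher and 3 lower, beside 3.58% and 3.82% of all genes. The other named members differed by Hspa5 (0.07), Hsp90b1 (-0.19), Dnajb9 (0.36), Dnajb11 (-0.15), Dnajc3 (0.10), Hspa1a (-0.25), Hspa1b (-0.14), Hsph1 (-0.06), Hsp90aa1 (-0.20), Hsp90ab1 (-0.08) and Dnajb1 (0.10) in the ER and cytosol. They differed by Hspa9 (-0.43), Hspd1 (-0.27), Hspe1 (0.01), Cct2 (0.02), Cct3 (-0.02), Cct5 (-0.06), Cct6a (-0.16), Cct7 (0.00) and Cct8 (-0.12) in mitochondria and chaperonin, and by 1.55 for Cct4, whose ko_igg 16 value is given above.

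Against wt, the ko_ly6g libraries gave 2 of 45 members higher and none lower, beside 2.99% and 1.35% of all genes, or 4.34% in both directions. Dnajb11 was 555, 591 and 465 in ko_ly6g, a change of 0.87 (SE 0.17, adjusted p by limma = 0.0189), and Dnajb1 was 1132, 1438 and 999, a change of 0.87 (SE 0.18, adjusted p by limma = 0.0257). All 3 libraries were above all 4 wt libraries for both genes. This comparison shares its wt libraries with the one above. Hspb1, Hsp90b1, Hspd1 and Cct3 differed by 1.14, 0.70, 0.73 and 0.64, and did not pass (adjusted p by limma = 0.156, 0.143, 0.15 and 0.0766). The remaining named members differed by Hspa5 (-0.03), Dnajb9 (0.02), Dnajc3 (0.45), Hspa1a (0.44), Hspa1b (0.37), Hsph1 (0.96), Hsp90aa1 (0.50), Hsp90ab1 (0.42) and Dnaja1 (0.61). The mitochondrial and chaperonin members differed by Hspa9 (0.40), Hspe1 (0.44), Cct2 (0.18), Cct4 (0.18), Cct5 (0.15), Cct6a (0.27), Cct7 (0.44) and Cct8 (0.40). Members without overlap numbered 17 higher and 0 lower, beside 13.8% and 7.22% of all genes. In the ER folding list 4 of 22 rose, Ero1l (1.25), Calr (0.83), Creld2 (0.90) and P4hb (0.72). Macrophage markers were below wt in 10 of 10 (median -0.77, 1 called) and summed to 13082 to 31516 against 24881 to 84659 in wt. Of 3 tested monocyte markers 2 were called higher, of 3 neutrophil markers 1 was called higher, and of 23 immediate-early genes 2 and of 18 epithelial markers 1 were called lower. The part of these lists in the chaperone values was not tested. Without wt 3, without wt 4 or without ko_ly6g 6 limma called 0 members (1.56%, 1.84% and 1.59% of all genes). Without wt 2 or ko_ly6g 5 it called 1 (2.91% and 2.17% of all genes). The count test in edgeR called 0 (0.849% of all genes).

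Some low members had large differences although they stayed below the filter. Without the filter, limma called 7 more of the 12 members below it under antibiotics in deficient mice, where it called 55.6% of all 8816 genes. Dnajc22, a J protein of the plasma membrane, was 66.3, 49.8, 45.3, 60.0 and 59.5 in 5C5_IL10R and 17.4, 11.3, 10.2 and 5.77 in 5C5_IL10R_abx, and its log2 change was -2.31 (adjusted p by limma = 1.64e-05). It was 37.3 and 37.0 in CX and 11.4, 12.2 and 2.11 in the treated littermates, so both treated groups lay far below both untreated ones, as the epithelial markers did. Dnajb5 went from 10.4, 9.33, 8.23, 6.07 and 2.41 to 19.6, 26.3, 37.3 and 19.2, and Dnajb4 from 25.9 and 17.1 in CX to 63.0, 90.7 and 43.2 in the littermates. At these levels 1 read is worth 0.508 to 2.18 normalised reads in the rescue table, so single values rest on few reads. In the chimeras Hspa12a, a divergent Hsp70, was 14.9, 25.7, 17.1 and 29.4 in wt, 102, 124 and 95.6 in ko_igg and 115, 63.9 and 76.3 in ko_ly6g, and every ko library was above every wt library. Its log2 changes against wt without the filter were 2.29 and 1.92 (adjusted p by limma = 0.00123 and 0.00559). These genes were named after their values were seen.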

How the data were processed

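RNA-seq of sorted macrophages gave 3 deposited tables, each with its own normalization, so tests stayed within a table. The values are a signal: per the submitters' processing notes reads were mapped to mm9 with HISAT 0.1.6 and counted with HOMER, and the deposited values, as their steps show, are reads per gene that the authors divided by 1 factor per library. Whole reads were recovered from these steps (100.0% of values within 0.01 of a read) for all libraries but ko_igg 16 and wt 3. In the first and the rescue table, 15399 and 15605 rows name no gene and were left out, and the chimera table has 0 such rows.

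For each table, log2(value + pseudocount) was fitted over all groups with limma 3.58.1 (R 4.3.3, intensity trend, robust), with pseudocounts of 1.31, 0.997 and 0.982. Fold changes are on that scale, which understates changes at low values. The filter removed the lowest 25 percent of each table's genes by mean, and Benjamini-Hochberg adjustment ran over all genes tested. A gene is called, and is said to rise or fall, at an adjusted p under 0.05. The statistics were tested on simulated data.

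Alternatives were a pseudocount of 10, no filter, TMM rescaling, a fit of the groups compared, the replicate block, edgeR 4.0.16 quasi-likelihood on recovered reads, and leaving out each library. Leaving out the treated libraries of either range of title numbers was added after seeing the data. Named in each comparison are 23 members fixed by name, the called members with the lowest adjusted p (at most 12), and at most 4 called genes of each partner list. Members and lists were chosen with earlier results of these data known. Motif and shared-word searches used RefSeq and GENCODE sequences of GRCm38.p6, a build other than that of the files, so no coordinates were carried between them. Depth differed 6-fold between libraries, and no interval beyond the fitted standard errors is given. Hspa8 was left out by the naming rule.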

Additional observations from a re-analysis of the deposited data

Results flagged for a closer look

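In 9 of 120 sets of values from groups of 4 or 5 libraries, the highest or lowest library stood apart from the rest of its group (a gap beyond Dixon's 95% limit). Chance alone marks about 1 in 20 such groups. In 5C5_IL10R_67, Dnajc10 was highest at 118 and Hspa5 lowest at 926. In 5C5_IL10R_P19_100, Cct4 was highest at 133 and Dnaja2 at 247, and in 5C5_IL10R_P19_107 Dnajb11 was highest at 186. In 5C5_IL10R_abx_161 the chaperonin subunit Cct5 was highest at 259.5, where the next library held 179.7. In wt 1, Dnajb6 was highest at 125 against 41.9 in the next library, Hspa1a highest at 4355 against 2083, and Hspd1 lowest at 220.3 against 407. Library wt 1 was also the shallowest of the chimera table with recovered reads.

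For 3 members every library moved one way under deficiency in one setting and the other way in another, and these differences were not tested. Dnajc3 was 0.35 higher on the log2 scale in ko_igg than in wt and differed by -0.47 in IL10R against CXhet. Hsp90b1 was 0.89 higher in ko_igg than in wt, and differed by -0.49 in IL10R against CXhet and by -0.34 in 5C5_IL10R_abx against the treated littermates. Hspb1 was 2.08 higher in ko_igg than in wt and differed by -0.60 in IL10R against CXhet. The settings differ in table, controls and bone marrow transfer.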

How the results depend on the processing

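None of the 38 called member results reversed under any alternative run, and 9 kept their call under all of them. Leaving out 1 library at a time gave 0 to 2 called members for IL10R against CXhet, 5C5_IL10R against CX, 5C5_IL10R_P19 against 5C5_IL10R and ko_ly6g against wt, 13 to 20 for 5C5_IL10R_abx against 5C5_IL10R, 2 to 10 for the treated littermates against CX, 1 to 13 for ko_igg against wt, and 0 in every fit of the other comparisons. In the same order, all genes called were 2.96% to 8.69%, 0.302% to 11.2%, 0.257% to 5.7% and 1.56% to 7.42%. They were then 54.7% to 58.1%, 20.0% to 31.1% and 3.08% to 15.8%, and at most 5.82% in the other comparisons. A fit of the groups compared called 6 members in place of 2 for 5C5_IL10R against CX and 0 in place of 2 for ko_ly6g against wt, while the share of all genes called went from 9.91% to 16.5% and from 4.34% to 1.46%. The count test in edgeR called 0 in place of 6 for ko_igg against wt and 0 in place of 2 for ko_ly6g against wt. It called 0.849% of all genes in both, in place of 9.19% and 4.34%. Without 5C5_IL10R_abx_495 and 5C5_IL10R_abx_497, 7 members in place of 0 were called against the treated littermates, and 19.9% of all genes in place of 0.0302%. The causes were not tested.

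IL10R and CXhet share replicate numbers, and whether these mark pairs is not stated. Deviations of same-number libraries had r = -0.058, 0.15 and 0.35 across genes, which are not replicates. Those of different numbers ran from -0.298 to 0.149. With 3 libraries in each group this cannot decide on pairing, and the main fit used the group alone. With the number as a block 2 members were called in place of 1, the added one being Hspa5. The share of all genes called went from 8.69% to 11.9%. In the other tables groups share too few title numbers for such a check, and whether their libraries form pairs is not stated. The 2 CX libraries, the 3 shallowest treated libraries and the values of low members limit what can be detected.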
